A study of Caenorhabditis elegans with 36 samples.

Results

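The 18 control libraries of an RNA-seq time course in Caenorhabditis elegans were used to ask which transcripts were highest or lowest in mid-adulthood. The 9 libraries of days 3, 5 and 7 were set against the 9 libraries of day 1 and of days 9 and 11, with each day weighted equally. These are 18 of the 36 libraries of the series, and 15383 of the 18949 genes in the table passed a filter of at least 1 CPM in at least 3 of the 18. All worms were N2, the wild-type laboratory strain, with no mutation or transgene, and each library was made from polyA RNA of whole worms. The control worms ate bacteria carrying the empty vector (ev) from the first larval stage, and there were 3 libraries for every other adult day from day 1 to day 11. The other 18 libraries came from worms of the same ages in which cco-1 RNAi bacteria made up 50% of the food, which targets a gene for part of respiratory complex IV, and they serve here as a second time course. The day comes from the sample titles, since the protocol text describes every sample as L4 or young adult. The study calls the 3 libraries of a group biological replicates. Nothing says whether they came from separate cultures, so P values measure the spread between these libraries.

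The hermaphrodite makes a limited store of sperm in its last larval stage, then switches to oocytes for the rest of its life and fertilizes them itself. Egg laying is heaviest in the first days of adulthood, when the uterus is filled with embryos, and it ends as the sperm are used up. The intestine makes yolk and digestive and defence proteins throughout, and the epidermis makes the cuticle collagens. A library of whole worms mixes all of these with the embryos inside them. In such bulk samples, fewer cells of a type cannot be told apart from less RNA per cell, and embryonic RNA cannot be told apart from RNA of the mother.

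The deposited values are in CPM, read counts scaled to a common library total, and had been quantile-normalized, which gives the genes of every library nearly the same ladder of values by rank. The 1000th highest gene stood at 183 CPM in all 36 libraries, the highest at 18128 to 29967 and the 10000th at 4.08 to 4.15. Sums of the 18 control libraries ran from 916765 to 953972 CPM. Read depth is unknown, and no counting interval can be given. Control libraries of one day were close, with a lowest pairwise correlation of 0.9966 and a median SD between 0.0726 and 0.0826 on the log2 scale. Differences are log2 fold changes (log2FC) on log2(CPM + 1), which understates the change of genes near 1 CPM. Calls in limma needed a log2FC beyond 0.5 in either direction with a P below 0.05 after Benjamini-Hochberg adjustment. In a principal components analysis of the 18 libraries, the first component (58.6% of the variance) ordered the days by age, and the second (33.1%) set days 3, 5 and 7, with means of 36.5, 59.3 and 31.2, apart from day 1 (-64.7) and days 9 and 11 (-19.9 and -42.3).

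Against the mean of days 1, 9 and 11, 2714 genes (17.6% of those tested) were higher in mid-adulthood and 2251 (14.6%) were lower. The median over all genes tested was 0.03. Such a contrast also passes for a gene that changed at one end only, so each end was tested on its own. Against day 1, 4833 genes (31.4%) were higher and 3952 (25.7%) lower, and against days 9 and 11, 3515 (22.8%) were higher and 3649 (23.7%) lower. Genes higher than day 1 and higher than days 9 and 11 are called peaked here, and there were 902 of them (5.86%). Genes lower than both ends are called dipped, and there were 1376 (8.94%). Of the other higher genes, 545 differed only from day 1, 678 only from days 9 and 11, and 584 had fallen from day 1 and fell further later, while 5 were above day 1 and below the old worms. Of the other lower genes, 536 differed only from days 9 and 11, 213 only from day 1, 105 had risen and rose further, and 21 were below day 1 and above the old worms. Another view, which needs no fold threshold, asks whether the libraries overlap. In 774 genes (5.03%) all 9 mid-adult libraries lay above the other 9, and in 1571 genes (10.2%) all 9 lay below.

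**Figure D1:**
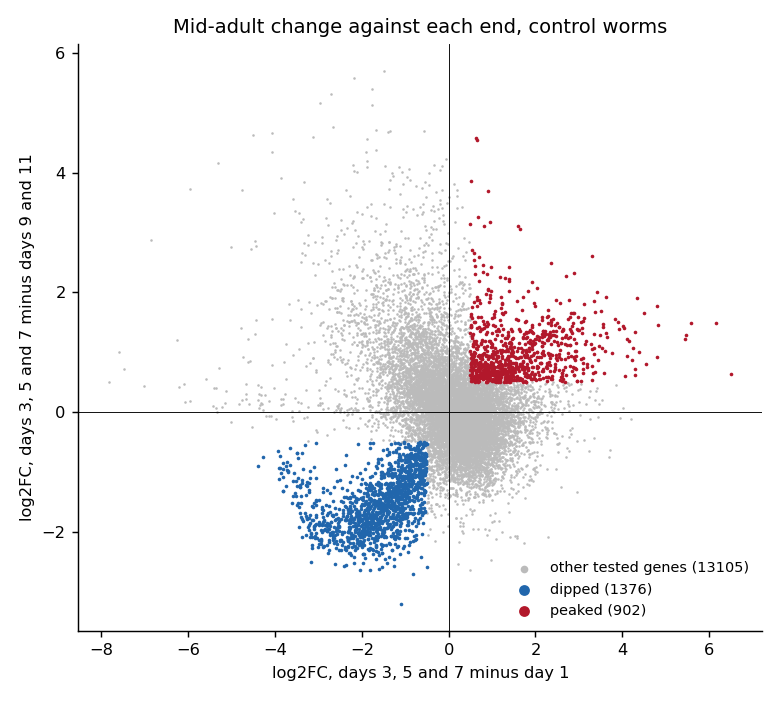
Each point is one of 15383 genes; the x axis gives the log2FC of days 3, 5 and 7 against day 1 and the y axis the log2FC against days 9 and 11. The 902 peaked genes (red) fill the upper right and the 1376 dipped genes (blue) the lower left, and genes in the upper left fell at both steps.

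Dipped genes were the more uniform set. Their lowest mid-adult day was day 5 in 1115 of 1376 (81.0%), day 3 in 245 and day 7 in 16, and the libraries did not overlap in 1328. Their median log2FC was -1.51 against day 1 and -1.55 against days 9 and 11. Peaked genes reached their highest mid-adult day at day 5 in 570 of 902 (63.2%), at day 3 in 210 and at day 7 in 122, and the libraries did not overlap in 547. Their medians were 1.35 and 0.86. Both calls rest on the mean of days 3, 5 and 7. The means of all 3 days lay beyond those of days 1, 9 and 11 in 783 peaked and 1372 dipped genes. Many genes of both sets were low at the trough, since 398 peaked genes averaged under 1 CPM at day 1 and 459 dipped genes averaged under 1 CPM in mid-adulthood. A sequence name alone, with no gene name, was given for 1061 of the dipped and 462 of the peaked genes.

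Chromosome, which the test did not use, differed between the sets. The X chromosome holds 13.7% of the genes tested and held 213 of the peaked genes (23.6%) but 9 of the dipped genes (0.654%). Chromosome IV held 27.1% of the dipped genes, against 16.7% of all genes tested and 12.7% of the peaked genes. Chromosome II held 25.9% of the peaked genes and 20.2% of the dipped genes, against 17.7%. Pseudogenes made up 7.05% of the dipped set, 3.77% of the peaked set and 3.82% of all genes tested. No test was run on these shares.

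**Figure D2:**
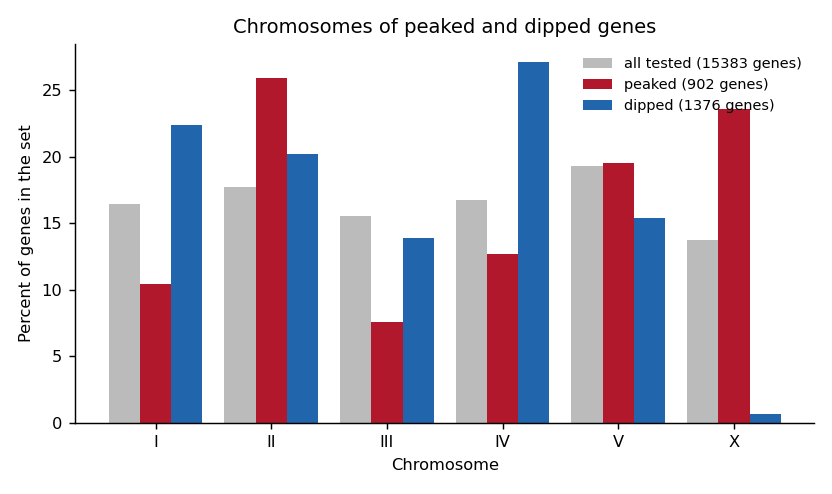
Bars give the percent of all tested, peaked and dipped genes on each chromosome. On X the dipped genes are at 0.654% and the peaked genes at 23.6%, against 13.7% of all genes tested.

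Sperm genes were low in mid-adulthood. Major sperm proteins form the cytoskeleton that moves the amoeboid sperm, and they are also the signal that tells oocytes to mature. All 30 of those tested were lower in mid-adulthood and 29 dipped, with a median log2FC of -1.90 against a median of 0.03 over all genes. Among all genes tested 14.6% were lower and 8.94% dipped. The summed level of the 30 was 3964 to 4017 CPM in the day 1 libraries and dropped to 349 to 394 on day 3 and 161 to 179 on day 5. On days 7, 9 and 11 it was 393 to 426, 609.7 to 663 and 698 to 702 CPM. The day 7 libraries all lay above those of day 5, and the day 11 libraries still lay far below those of day 1. These genes are near-identical copies and the paper's methods count only uniquely mapped reads, so the share of each copy is uncertain while the sum is less so.

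msp-142 (chromosome II:5797927-5798310 in WBcel235) stood at 112, 116 and 113 CPM at day 1. In the 9 mid-adult libraries it ranged from 4.51 to 15.0 CPM (median 11.9), and in the 6 libraries of days 9 and 11 from 26.8 to 33.9 (median 31.3). All mid-adult libraries lay below all others, and msp-142 was lower by a log2FC of -2.21 ± 0.036 (SE; limma adjusted P = 7.7e-34). It was named for its large log2FC on this list, so the lack of overlap and the P value describe a chosen gene. msp-59, the most abundant of the family, fell from 279 to 289 CPM at day 1 to 14.4 to 41.6 in mid-adulthood and was at 54.9 to 62.0 in the old worms. msp-56 and msp-45 gave log2FC of -2.16 and -2.07.

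Other sperm genes were lower too. Of 44 tested, 40 were lower and 37 dipped, beside 14.6% and 8.94% of all genes, with a median of -1.65. Relative to day 1 their median was -0.56 and -0.40 on days 9 and 11, where that of the major sperm proteins was -2.61 and -2.45. gsp-3 and gsp-4, a pair of protein phosphatases of sperm, had log2FC of -2.42 ± 0.039 and -2.33 ± 0.035. gsp-3 was at 94.2 to 102 CPM at day 1, 5.27 to 21.5 in mid-adulthood and 44.1 to 61.1 at days 9 and 11. ssp-16, whose product is related to the major sperm proteins, had a log2FC of -2.21. spe-39, the list member with the highest mean, is also used outside sperm for vesicle trafficking, and it stayed between 56.0 and 96.2 CPM with a log2FC of 0.24.

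The Argonautes alg-3 and alg-4 bind the small RNAs that act during sperm formation, and the spch genes encode small basic proteins of sperm chromatin. This group of 5 was put together after its values were seen, and all 5 dipped. alg-3 was at 80.5, 79.4 and 83.4 CPM at day 1, at 4.54 to 15.7 (median 7.24) in the mid-adult libraries and at 38.4 to 49.6 (median 43.7) in the old ones. Its mid-adult libraries lay wholly below the rest (log2FC -2.56 ± 0.039; limma adjusted P = 9.9e-35). alg-4 gave -2.42, spch-1 -2.24, spch-2 -2.14 and spch-3 -2.47. Among 19 Argonautes tested, wago-10 was the other with a large dip (-1.69), while wago-1, the most abundant, had a log2FC of -0.02 ± 0.028.

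**Figure D3:**
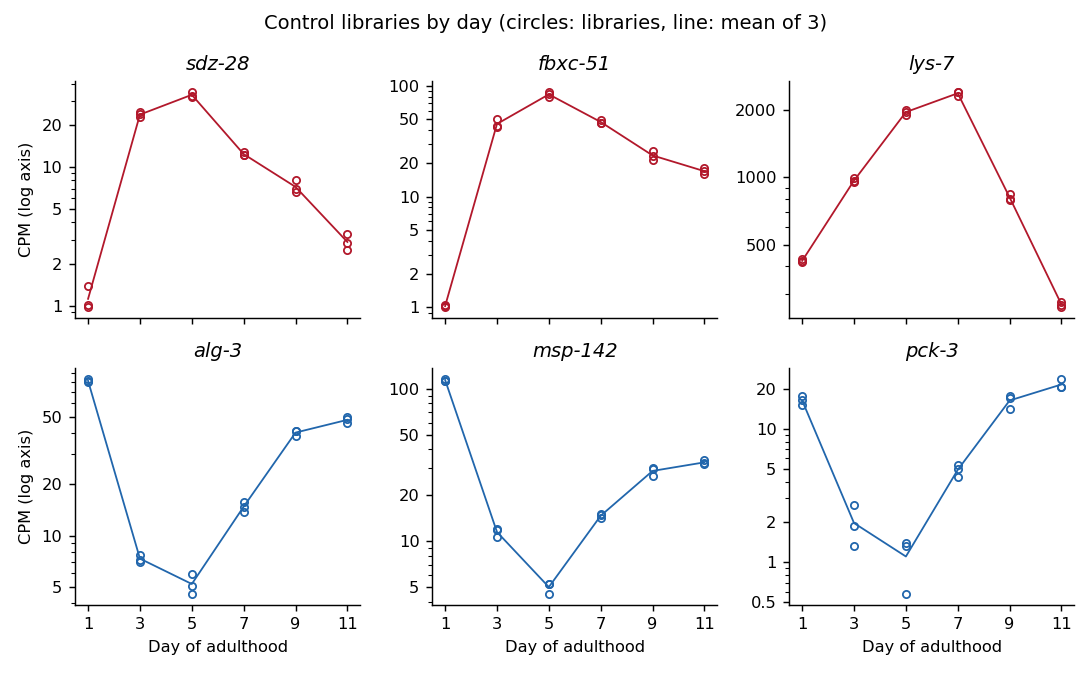
CPM on log axes against day of adulthood for 3 peaked genes (sdz-28, fbxc-51, lys-7) and 3 dipped genes (alg-3, msp-142, pck-3); circles are the 3 control libraries of a day and lines join their means. All mid-adult libraries lie above the rest in the upper row and below the rest in the lower row. For sdz-28, lys-7 and pck-3 this was a condition of the choice. The other 3 were named for large mid-adult contrasts or after values were seen, so their lack of overlap is not separate from the choice.

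The 12 dipped genes named here have the largest difference to the nearer end among those whose libraries did not overlap. Lack of overlap was thus a condition of the choice. They included several enzymes and 7 genes known by sequence name alone. pck-3 encodes a phosphoenolpyruvate carboxykinase, the enzyme class that opens gluconeogenesis. It was at 15.2, 17.6 and 16.3 CPM at day 1, fell to 0.575 to 5.35 (median 1.86) in mid-adulthood and was back at 14.1 to 23.7 (median 19.0) in the old worms. The old and young libraries overlapped each other, and the mid-adult libraries overlapped neither (log2FC -2.52 ± 0.091; limma adjusted P = 1.7e-15). pck-1, the family member with the higher level, moved otherwise: it averaged 177 CPM at day 1 and fell without recovery to 10.1 to 15.1 CPM in old worms.

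acs-10 and acs-18 are named as acyl-CoA synthetases, which activate fatty acids. acs-10 dropped from 40.4 to 43.1 CPM to 2.72 to 10.1 and returned to 26.8 to 34.6 (log2FC -2.49 ± 0.054). acs-18 gave a log2FC of -2.46 ± 0.055. kel-10, a kelch-repeat gene, gave -2.38, and tbx-34, a T-box transcription factor, gave -2.33. The genes known by sequence name were Y113G7C.1 (-2.73), C14C10.1 (-2.57), C50C3.2 (-2.49), B0205.10 (-2.38), C18E9.8 (-2.37), F44G3.7 (-2.33) and ZK550.5 (-2.32). Exons of C14C10.1, pck-3 and ZK550.5 each overlap another gene, and the paper's methods count without strand, so these values may hold reads of the neighbour.

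Single genes of metabolic families dipped, though most of these lists had a share of dipped genes near that of all genes. Of 20 fatty acid desaturases and elongases 4 dipped, 8 were higher and 4 lower, beside 8.94% dipped over all genes, and elo-7 was the lowest with a log2FC of -1.97 and 9.71 to 9.96, 0.829 to 3.84 and 7.86 to 11.9 CPM in young, mid-adult and old worms. acdh-8, an acyl-CoA dehydrogenase, had a log2FC of -2.27, pfk-1.2, a phosphofructokinase, -1.80, and cbs-2, a cystathionine beta-synthase, -1.56. Of the 38 fatty acid catabolism and glyoxylate genes, the list of acdh-8, 14 were higher, 3 lower and 3 dipped. Of the 21 methionine cycle and phosphatidylcholine genes, the list of cbs-2, 7 were higher, 2 lower and 2 dipped. Among all genes tested 17.6% were higher, 14.6% lower and 8.94% dipped. No result is read for the dips of these 2 lists, while higher genes made up a larger share of each than of all genes. fat-2, which makes linoleic acid, was at 891 to 914 CPM at day 1, 557 to 764 in mid-adulthood and 60.0 to 145 in old worms, with no dip. enol-1, a glycolytic enolase and the highest of 21 glycolysis and gluconeogenesis genes, of which 2 dipped, had a log2FC of -0.16 ± 0.017. aldo-1, an aldolase of glycolysis, did dip at a high level, from 219.9 to 234 CPM to 47.5 to 100.5 and back to 108 to 152 (log2FC -1.06 ± 0.044).

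Markers of males were measured beside the sperm genes, because males arise among the progeny and also hold sperm. Of 10 genes of male neurons and seminal fluid, 7 passed the filter on low values, and this list was added after values were seen. Their summed level ran from 31.4 to 34.8 CPM at day 1, from 30.2 to 36.2 in mid-adulthood and from 25.7 to 27.5 at days 9 and 11. swm-1, a protease inhibitor of seminal fluid, gave most of the day 1 sum (27.5, 29.7 and 28.3 CPM) and fell to 5.80 to 9.98 CPM in old worms. lov-1 and pkd-2, which encode polycystins of male sensory neurons, were at 0.354 to 0.591 and 0.400 to 0.850 CPM at day 1 and at 5.27 to 8.46 and 2.63 to 3.42 CPM in old worms. Neither was called against the mean of the ends, and exons of both overlap other genes. Their part in the late rise of sperm genes was not tested.

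Genes of the early embryo were high in mid-adulthood. Early zygotic genes are those first transcribed by the embryo after fertilization. Of 43 genes on this list 34 passed the filter, and of these 26 were higher in mid-adulthood, 22 peaked and 1 was lower, with a median log2FC of 1.14. Among all genes tested 17.6% were higher, 5.86% peaked and 14.6% were lower. The median level rose by 1.66 on the log2 scale from day 1 to day 3 and by 1.82 to day 5, and it stood 0.65 above day 1 at day 11. The summed level was 136 to 142 CPM in day 1 libraries, 314 to 325 on day 3 and 315 to 323 on day 5. On days 7, 9 and 11 it was 198 to 216, 139 to 159 and 101 to 115 CPM. sdz-27 gave much of this sum, 97.0 CPM on average at day 1 and 46.4 at day 9, and the median of the list was still 0.85 above day 1 at day 9.

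sdz-28 belongs to the transcripts that depend on SKN-1, the maternal factor for endoderm and mesoderm fate. It was at 0.978, 1.01 and 1.38 CPM at day 1, at 12.2 to 34.9 (median 24) in mid-adulthood and at 2.52 to 8.0 (median 4.94) in old worms. No library of another age reached the mid-adult range (log2FC 2.47 ± 0.051; limma adjusted P = 5.1e-31). sdz-28 is also among the 12 peaked genes given below, which were chosen for lack of overlap. sdz-5 gave a log2FC of 2.08 ± 0.059 and vet-6, named as a very early transcript, 1.89 ± 0.057. Genes that specify the first lineages were near the detection floor. pes-10, one of the earliest embryonic transcripts, peaked at 1.13 to 4.17 CPM against 0.473 to 0.654 at day 1 and 0.308 to 0.960 later. end-1, an endoderm GATA factor, had a log2FC of 0.62 at levels of 0.798 to 2.28 CPM in mid-adulthood and was not called against days 9 and 11, and med-1 and med-2 did not pass the filter. sdz-27, the list member with the highest mean, did not peak: it was at 94.3 to 101 CPM at day 1, 70.6 to 91.8 in mid-adulthood and 26.2 to 49.0 in old worms.

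F-box proteins choose the targets of SCF ubiquitin ligases, and Skp1-related proteins link them to the ligase. Both lists here were added after values were seen. Of 135 fbxb and fbxc genes tested 117 were higher and 99 peaked, with a median of 1.20, against 5.86% peaked over all genes. Their sum rose from 183 to 187 CPM at day 1 to 1125 to 1169 at day 5 and was at 567 to 591 at day 11. fbxc-51 was at 1.05, 1.01 and 1.04 CPM at day 1, 42.4 to 88.6 (median 49.3) in mid-adulthood and 16.0 to 25.9 (median 19.9) in old worms (log2FC 2.58 ± 0.039). fbxc-18 and fbxb-40 gave 2.35 and 2.29. fbxc-50, the most abundant, stayed between 67.5 and 102 CPM. These genes lie in clusters of close relatives and the paper's methods drop reads shared between copies, so values of single copies are uncertain.

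Of 20 skr genes 13 were higher and 10 peaked, with a median of 0.94. skr-7 gave a log2FC of 2.24 ± 0.043, skr-21 2.05 and skr-8 1.99. skr-7 was at 5.44 to 6.47 CPM at day 1, 43.8 to 101 in mid-adulthood and 17.6 to 27.9 in old worms. skr-1, the broadly used member, stayed between 240.3 and 299 CPM with a log2FC of 0.14. The larger fbxa family was near the background, with 23 of 154 members higher, 27 lower, 6 peaked and 8 dipped, beside 17.6%, 14.6%, 5.86% and 8.94% of all genes, so no result is read for the family. fbxa-155 was at 3.37 to 3.81 CPM at day 1, 0.916 to 3.05 in mid-adulthood and 13 to 19.5 in old worms (log2FC -2.09), and fbxa-202 (-2.05) and fbxa-196 (-1.74) also dipped.

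Other genes peaked at higher levels. cht-1, a chitinase, rose from 4.50 to 6.18 CPM at day 1 to 263 to 693 in mid-adulthood and stood at 115 to 233 in old worms (log2FC 3.04 ± 0.050). cav-1, the worm caveolin, went from 5.48 to 7.65 to 262 to 519 and 97.7 to 166 CPM (log2FC 2.85 ± 0.051). Both were singled out after their values were seen, and cht-1 has an exon that overlaps another gene. inx-2 and inx-3, a pair of innexins that form gap junctions, gave 2.08 ± 0.030 and 2.02 ± 0.032. In all 3 of 24 innexins were higher, beside 17.6% of all genes tested. epg-2, an adaptor that sends granules to autophagy in embryos, gave 2.30 ± 0.029, and it was at 9.37 to 9.57, 112 to 261 and 41.9 to 93.2 CPM in young, mid-adult and old worms. Among histones, his-24, a linker histone, gave 1.87 and his-72, an H3.3 variant, 0.93, whereas 8 of 30 histone genes were lower, beside 14.6% of all genes.

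Some regulators of tissue fate peaked as well. pha-4, the organ identity factor of the pharynx, was at 8.28 to 9.53 CPM at day 1, 16.8 to 32.2 in mid-adulthood and 12.7 to 17.7 in old worms (log2FC 0.86 ± 0.040). nhr-25, a nuclear receptor of the embryonic and larval epidermis, gave 1.18 ± 0.042. nhr-2, another receptor used in embryos, gave 1.23 and was above day 1 but not called against old worms. Of 185 nuclear hormone receptors 28 were higher and 2 lower, beside 17.6% and 14.6% of all genes tested. dpy-14, a collagen, rose from 0.912 to 0.997 CPM to 19.0 to 91.1 and was at 19.2 to 40.2 in old worms, so that mid-adult and old libraries overlapped (log2FC 2.22 ± 0.051). noah-1, a matrix protein laid down before the cuticle, gave 0.98 ± 0.031. Of 12 moulting genes tested, a list added after values were seen, 3 were higher and 1 peaked, and their sum was 302 to 321 CPM on day 1, 170.4 to 180.5 on day 3, 271 to 289 and 262 to 273 on days 5 and 7, and 115 to 168 later. The part of larvae or late embryos in these values was not tested.

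The 12 peaked genes named here have the largest difference to the nearer end among those whose libraries did not overlap. They included several without a known role. F15E6.3 (chromosome IV:4294895-4295689) led them at 0.838, 0.592 and 0.737 CPM at day 1, 12 to 22.7 (median 14.7) in mid-adulthood and 1.02 to 2.59 (median 1.85) in old worms. Lack of overlap was a condition of the choice, and the log2FC was 2.83 ± 0.061 (limma adjusted P = 2.3e-30). clec-190, a C-type lectin gene, gave 2.45 ± 0.040 and its neighbour M199.9 2.51 ± 0.061, and exons of each overlap other genes. ttr-50, a transthyretin-like gene, was at 8.88 to 9.12, 127 to 331 and 38.6 to 74.8 CPM and gave 2.72 ± 0.034. C27B7.9 (2.09), Y45G5AM.5 (2.49), Y39G10AL.1 (2.07), F42A10.7 (1.96) and C31C9.2 (2.07) complete the set with sdz-28, fbxc-18 and lys-7.

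lys-7, a lysozyme of the intestinal defence against bacteria, peaked later than the embryonic genes. It was at 429, 420.2 and 419.7 CPM at day 1, 951 to 2412 (median 1964) in mid-adulthood and 263 to 846 (median 536) in old worms, and its highest mean was at day 7. Its mid-adult libraries lay above all others, as the choice of the 12 required (log2FC 1.86 ± 0.017; limma adjusted P = 1.3e-40). Some peptides of epidermal defence were also highest at day 7. Of 25 cnc and fip genes 12 were higher and 8 peaked, and 8 were above and 10 below day 1. Among all genes tested 17.6% were higher and 5.86% peaked, and 31.4% were above and 25.7% below day 1. Their sum was 198 to 199.9 CPM at day 1, 114 to 120 on day 3, 182 to 213 on day 7 and 41.2 to 45.3 on day 11. cnc-4 averaged 1.25, 29.9, 54.4 and 11.5 CPM on days 1, 5, 7 and 11, and the mid-adult and old libraries overlapped. nlp-29, which is induced by fungal infection and wounding, averaged 1.42, 13.1, 27.1 and 3.87 CPM on the same days (log2FC 1.72 ± 0.065). nlp-28 gave 1.5, cnc-6 1.32 and fip-6 1.5.

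Many genes of oocytes and the eggshell were above day 1 and few were above the old worms. Of 17 eggshell and permeability barrier genes 6 were higher, 3 peaked and none was lower, with a median of 0.36, and 12 were above day 1 (31.4% of all genes tested were) while 3 were above the old worms (22.8% of all genes). perm-2 and perm-4, which build the permeability barrier, were the largest. perm-4 was at 1096 to 1173 CPM at day 1, 2035 to 2635 in mid-adulthood and 685 to 1313 in old worms (log2FC 1.27 ± 0.044). perm-2 gave 1.28 ± 0.034, and chs-1, the chitin synthase of the eggshell, 0.67. cbd-1, a chitin-binding eggshell protein, was at 951 to 977 CPM at day 1 and 1964 to 2167 in old worms, well inside its mid-adult range of 1823 to 2635.

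Among 20 maternal RNA-binding regulators 16 were above day 1, and 1 was above and 1 below the old worms, beside 31.4%, 22.8% and 23.7% of all genes tested. oma-2, needed for oocyte maturation, peaked with a log2FC of 0.80 ± 0.018, from 244 to 254 CPM at day 1 through 427 to 682 to 339 to 360.3. pos-1, a maternal factor of posterior fate, gave 0.67. rme-2, the yolk receptor of oocytes, peaked as well, at 282 to 296, 376 to 679 and 303 to 323 CPM (log2FC 0.68 ± 0.020). Of 28 germline stem cell and P granule genes 3 were higher and 2 lower, beside 17.6% and 14.6% of all genes tested. car-1 and cgh-1, components of germline RNA granules, peaked at 0.73 and 0.66, whereas fbf-1 and fbf-2, which keep germline stem cells dividing, were lower at -0.84 and -0.68 and differed only from old worms.

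Most DNA replication genes were above day 1 and few differed from the old worms. Of 30 replication genes 26 were above day 1, none was above and 4 were below the old worms, beside 31.4%, 22.8% and 23.7% of all genes tested. rnr-2, the small subunit of ribonucleotide reductase, gave 0.87 ± 0.026 and mcm-7, a helicase subunit, 0.51 ± 0.019, and no other replication gene was called. Of 28 meiotic genes 15 were above day 1 and 12 were below the old worms, and against the mean of the ends only plk-2, a kinase of chromosome pairing, was called, at -0.55. Their median relative to day 1 was 0.66, 0.39 and 0.47 on days 3, 5 and 7 and 0.90 and 1.11 on days 9 and 11. glh-1 and pgl-1, which mark the germline, stayed between 317 and 527 CPM and between 248 and 354 CPM in all 18 libraries.

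**Figure D4:**
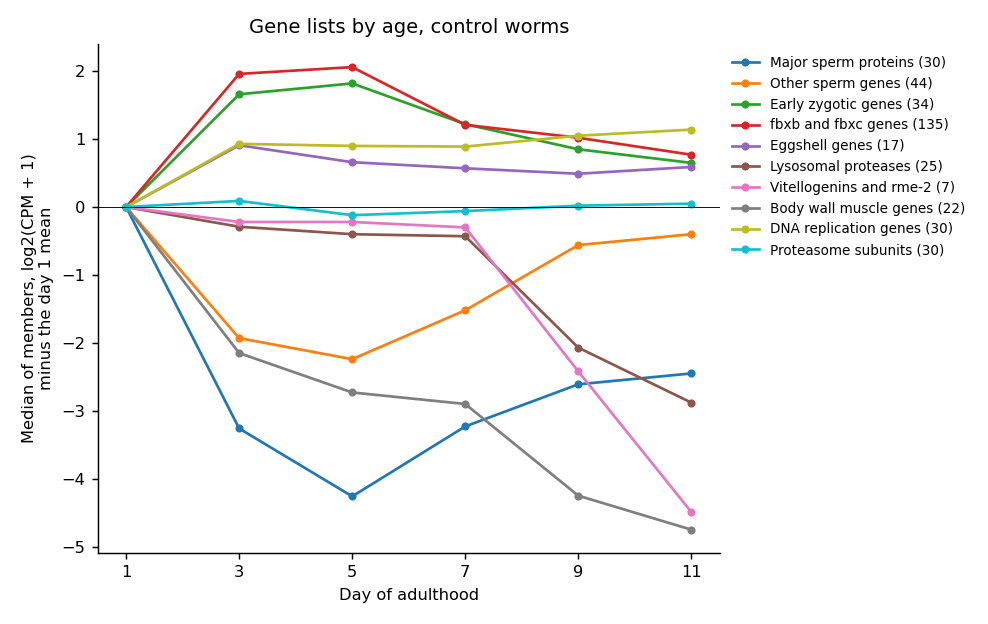
Median over the members of each list (number tested in brackets) of log2(CPM + 1) minus the day 1 mean, against day of adulthood, in control worms. Early zygotic and fbxb and fbxc genes are highest at day 5, sperm genes are lowest at day 5, and the median of the lysosomal proteases is -0.43 at day 7 and -2.07 at day 9. The vitellogenin median rests on a value set by rank up to day 7.

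Another course, with a steep fall after day 7 and mostly smaller changes before it, made many genes higher against the mean of the ends without a peak. Vitellogenins, the yolk proteins that the intestine makes for oocytes, were mixed. All 6, with rme-2, were higher, with a median of 2.02, while 1 was above and 3 were below day 1 and all 7 were above days 9 and 11. The shares of all genes were 17.6% higher, 31.4% above and 25.7% below day 1, and 22.8% above days 9 and 11. vit-2 was at 25809 CPM in the 3 day 1 libraries, at 29967 in all 9 mid-adult libraries and at 1999 to 11951 in old worms. vit-6 was at 29967, 25809 and 1281 to 6750.2 CPM. The equal values follow from the rank normalization, in which these genes exchanged the top places, so neither a change among days 1 to 7 nor its spread can be read for them, and their P values are not given.

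Some other yolk genes had fallen by day 7. vit-1 was at 6750.2 CPM at day 1, 436 to 1511 in mid-adulthood and 17.3 to 58.7 in old worms. vit-3 averaged 4771, 1937 and 581 CPM on days 1, 3 and 7 and vit-4 3305, 2089 and 662, and they were at 8.62 to 65.8 and 8.12 to 73.7 CPM in old worms. vit-5 was at 14724, 11951 to 18128 and 983 to 3643 CPM. These genes are close copies, and an exon of vit-2, of vit-3 and of vit-4 overlaps another gene. The summed list was 85526 to 85663 CPM at day 1, 69715 to 77289 in mid-adulthood and 4622 to 22792 at days 9 and 11.

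Lysosomal proteases, the cathepsins and aspartic proteases that digest protein in the intestine, were alike in a late fall and mixed against day 1. Of 25 tested 23 were higher, 1 was lower and 6 peaked, beside 17.6%, 14.6% and 5.86% of all genes, with a median of 1.42. Against days 9 and 11, 24 were higher, and against day 1, 6 were higher and 11 lower. Those shares over all genes were 22.8%, 31.4% and 25.7%. Their sum was 9627 to 10336 CPM in every library of days 1 to 7 and 1099 to 2869 CPM at days 9 and 11. A level sum does not mean that each member was level. cpr-6, a cathepsin B, was at 479, 482 and 481 CPM at day 1, 468 to 674 (median 524) in mid-adulthood and 32.4 to 77.0 (median 54.4) in old worms. Young and mid-adult libraries overlapped and the old ones lay far below (log2FC 2.34 ± 0.019).

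asp-6 peaked at a high level. It was at 1784 to 1848 CPM at day 1, 3223 to 3643 in mid-adulthood and 475 to 1399 in old worms, with no overlap (log2FC 1.61). Its 3 libraries were equal at 3345 CPM on day 3 and at 3223 on day 7, which follows from the ranks, so no spread can be read there. asp-4 peaked by a smaller step, from 402 to 403 to 493 to 643 CPM, before it fell to 41.3 to 104. asp-1 gave 1.84, asp-2 2.28, cpr-1 1.42 and cpl-1, a cathepsin L, 1.78, and of these cpr-1 peaked while asp-2 fell at both steps. cpr-1 averaged 143 CPM at day 1 and 111 at day 3, so it was above day 1 only after day 3. cpr-5 was at 35.1 to 38.6, 15.2 to 24.2 and 6.10 to 9.50 CPM and was not called (log2FC 0.44), and cpr-8, at most 3.06 CPM in any of the 18 libraries, gave 0.51.

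All 5 lipl genes that passed the filter, which encode lysosomal lipases, were higher, beside 17.6% of all genes. lipl-1 peaked, at 5.36 to 6.14, 16.3 to 25.9 and 3.07 to 6.25 CPM (log2FC 1.85 ± 0.052). lipl-5 gave 2.29 and lipl-2 1.46, and neither was above day 1. Of 21 V-ATPase subunits, which acidify the lysosome, only vha-6, the subunit of the intestine, was called (log2FC 1.11), and it fell at both steps, from 401 to 413 to 87.5 to 185 and 14.6 to 25.4 CPM.

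Many defence genes of the intestine were higher as well. Of 19 saposin-like genes 14 were higher, 1 was lower and 3 peaked, and of 12 lysozymes 7 were higher, none was lower and 2 peaked. Of 118 C-type lectins 59 were higher and 14 lower, 9 peaked and 13 dipped. Over all genes tested 17.6% were higher, 14.6% lower, 5.86% peaked and 8.94% dipped. The lectin peaks and dips were near those shares, and the lectins named here are all higher ones. spp-4 was at 30.0 to 31.6 CPM at day 1, 23.3 to 42.4 in mid-adulthood and 0.441 to 2.68 in old worms (log2FC 2.59 ± 0.046). spp-5 gave 2.16 and spp-18, which peaked, 1.90. lys-2, lys-1 and ilys-5 fell at both steps and gave 2.94, 2.19 and 2.38, and clec-50, clec-85 and clec-63 gave 2.79, 2.69 and 2.42. clec-196 peaked instead, from 0.728 to 1.12 CPM through 26.8 to 72.4 to 10.1 to 17.9 (log2FC 2.6 ± 0.046). Of 53 transthyretin-like genes 30 were higher and 6 lower, 9 peaked and 4 dipped, and ttr-16 and ttr-46 gave 1.99 and 1.71.

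The markers of the intestine itself moved too. elt-2, its GATA factor, was at 28.6 to 30.9 CPM at day 1, 17.3 to 24.6 in mid-adulthood and 4.88 to 7.64 in old worms (log2FC 0.89 ± 0.048), and ges-1, its esterase, gave 1.31. Of 18 intestine markers 16 were above the old worms and 12 were below day 1, beside 22.8% and 25.7% of all genes tested. The list also holds asp-1, cpr-1 and cpr-6, given above as proteases, so its counts are not separate from theirs. The part of the intestine markers in the late fall of the genes above was not tested. Of 59 UDP-glucuronosyltransferases 33 were higher and none lower, and of 35 glutathione S-transferases 12 and none. Over all genes tested 17.6% were higher and 14.6% lower. ugt-32 gave 1.93, ugt-26 1.41 and gst-24 1.72. Among 53 cytochrome P450 genes 21 were higher and 6 peaked, and cyp-29A4 was at 1.12 to 1.48, 10.5 to 15.0 and 3.43 to 5.75 CPM (log2FC 1.79 ± 0.049).

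Lipid carriers joined this course. Of 16 lbp and far genes, whose products bind fatty acids and retinol, 9 were higher and 2 peaked, beside 17.6% and 5.86% of all genes. far-3 peaked late, at 39.0 to 45.4 CPM at day 1, 61.5 to 208 in mid-adulthood and 12.4 to 34.6 in old worms (log2FC 2.08 ± 0.038). lbp-1 also peaked (1.59 ± 0.036), and far-1 and far-2 gave 1.67 and 1.33 and were not called against day 1. sams-1, which makes S-adenosylmethionine, and pmt-1, an enzyme of phosphatidylcholine synthesis, fell at both steps and gave 1.20 and 1.25. acdh-1, an acyl-CoA dehydrogenase of branched-chain breakdown, fell from 714 to 734 CPM to 93.9 to 446 and 2.84 to 21.5 (log2FC 2.41 ± 0.096).

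Body wall muscle genes fell at both steps. Of 22 body wall sarcomere genes 21 were below day 1 and 21 above the old worms, 11 were called higher against the mean of both ends and 1 lower, and none peaked. unc-54, the main myosin heavy chain, was at 3019 CPM in the day 1 libraries, 299.9 to 770.1 in mid-adulthood and 55.0 to 86.1 in old worms (log2FC 0.74). pat-10, unc-27 and mlc-2 gave 1.16, 1.11 and 1.05. Most cuticle collagens fell from day 1 and fewer fell later. Of 112, 98 were below day 1, 48 were above and 7 below the old worms, and 26 were called higher and 57 lower against the mean of the ends, with 4 peaked and 6 dipped. Among all genes tested 25.7% were below day 1, and 22.8% were above and 23.7% below the old worms. Against the mean of the ends 17.6% were higher and 14.6% lower, and 5.86% peaked and 8.94% dipped. No result is read for the collagen peaks and dips as a set. col-95 was called peaked, with 343 to 351 CPM at day 1, a mean of 1268 at day 3, 285 at day 7 and 14.0 to 37.0 in old worms, so its mid-adult libraries reached below those of day 1. col-101, col-143 and col-181 fell at both steps and gave 3.00, 2.83 and 2.68. dpy-13 and dpy-5, collagens of body shape, were at 58.6 to 66.5 and 32.6 to 39.6 CPM at day 1 and at most 1.40 and 1.17 CPM in any later library.

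Basement membrane genes followed muscle, with 12 of 18 higher. let-2, a type IV collagen, gave 1.37, ost-1 (SPARC) 0.96 and lam-2, a laminin, 0.94. Hedgehog-related genes were split, with 9 of 36 higher and 10 lower. wrt-10 peaked from 6.24 to 6.89 CPM through 20.9 to 69.2 to 11.0 to 22.4 (log2FC 1.72 ± 0.049), and grl-16 dropped from 63.1 to 74.8 CPM at day 1 to at most 1.46 CPM in any later library (log2FC -1.75). Of 26 insulin-like peptides 9 were higher and 4 lower, with ins-34 at 1.14, ins-2 at 0.95 and ins-23 at -1.13. Patched-related genes gave 5 of 26 higher and 1 lower. Over all genes tested 17.6% were higher and 14.6% lower, so no result is read for the Patched-related list. Of the 227 genes that the naming rule or a later choice took up, 53 have an exon that overlaps another gene, among them perm-2, chs-1, rnr-2, mcm-7, his-24, inx-3, epg-2, asp-2, asp-4, far-3, elo-7, cbs-2, ctb-1, let-2, daf-21 and sip-1, and their values may hold reads of a neighbour.

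Few genes of the proteasome and the cytosolic ribosome were called against the mean of the ends. None of 30 proteasome subunits was called in limma against the mean of the ends, with a median of -0.06, and 1 of 79 cytosolic ribosomal protein genes was higher and 1 lower. The lower one, rpl-42, was at most 3.33 CPM in any of the 18 libraries. Of 63 mitochondrial ribosomal protein genes 12 were lower and none higher, with a median of -0.34. Over all genes tested 14.6% were lower and 17.6% higher. mrps-5 was at 107 to 113 CPM at day 1, 74.0 to 95.2 in mid-adulthood and 117 to 129.8 in old worms (log2FC -0.52 ± 0.025). Of 39 nuclear respiratory chain genes 2 were lower and none higher, but 22 were below day 1. Of 11 genes of mitochondrial DNA 8 were higher, all 11 were below day 1 and 10 were above the old worms. ctb-1 fell at both steps, from 1802 to 1906 CPM to 891 to 1313 and 246 to 691 (log2FC 0.73 ± 0.050).

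Of 27 core autophagy genes 19 were above day 1 and 3 above the old worms, beside 31.4% and 22.8% of all genes, and 10 were higher against the mean and none lower. lgg-1, the worm ATG8, peaked at 248 to 264, 416 to 869 and 340.5 to 554 CPM (log2FC 0.84 ± 0.021). Of 15 inducible heat shock genes 3 were higher and 3 lower. sip-1, a small heat shock protein of germline and embryo, gave 0.90, and daf-21, the cytosolic Hsp90, rose throughout, from 1823 to 1883 CPM to 2347 to 3643 and 5419 to 8371 (log2FC -0.62). Of 24 synaptic genes 1 was lower against the mean of the ends (unc-13, -0.63), while 14 were below day 1. Of 66 neuropeptide genes 11 were higher and 1 lower, and of 32 cilia genes 1 was higher and 4 lower. Of 9 pharyngeal muscle genes 3 were higher and 2 lower. Over all genes tested 17.6% were higher and 14.6% lower, so no result is read for the neuropeptide, cilia and heat shock lists.

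The cco-1 RNAi worms gave a second course with no library in common. There 1809 genes (11.8%) were higher and 1882 (12.2%) lower in mid-adulthood, with a median of 0.05. Of the 1376 genes dipped in control worms 1224 also dipped with cco-1 RNAi, which is 89.0% of the control set and 94.2% of the cco-1 set of 1299. Of the 902 peaked genes 355 peaked, which is 39.4% of the control set and 62.2% of the cco-1 set of 571. The median log2FC of the control set in the cco-1 libraries was -1.20 for dipped and 0.59 for peaked genes, beside -1.57 and 1.08 in the control libraries that chose them. The control values chose these genes, so the medians are given as a description. The cco-1 RNAi libraries of days 9 and 11 were further apart than the control libraries, with median SDs of 0.119 and 0.114, lowest correlations of 0.991 and 0.9912 within a day and correlations of 0.988 to 0.9978 between the days. Replicate 2 was the lowest library of both days in asp-1 and cpr-6, so the difference between RNAi groups was also fitted without these 2 libraries, a choice made after seeing the data.

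The difference of the contrast between the RNAi groups was tested across all genes in a fit of 36 libraries. It was higher with cco-1 RNAi in 688 genes (4.47%) and lower in 1106 (7.19%), with a median of 0.03. Of the fbxb and fbxc genes 62 of 135 were lower and 1 higher, and fbxc-51 had a log2FC of 2.58 in control and 1.47 in cco-1 RNAi worms. Of the lysosomal proteases 15 of 25 were lower and none higher, and 16 were lower without the 2 libraries. asp-1 gave 1.84 and 0.15, a difference of -1.69 ± 0.15 (limma adjusted P = 1.1e-09) and of -1.87 ± 0.085 without them. These 2 libraries were left out for their low asp-1 and cpr-6 values, so a larger asp-1 difference without them was fixed by that choice. The count of 16 is not separate from the choice either. With cco-1 RNAi asp-1 averaged 1263 ± 420 CPM (SD, n = 3) at day 9 and 1599.9 ± 440 at day 11, where control libraries averaged 416 ± 26 and 141 ± 11. At day 1 asp-1 averaged 4611 ± 900 CPM with cco-1 RNAi and 2518 ± 33 in control worms, so its courses differed at both ends. cpr-6 was at 184 ± 63 and 205 ± 68 CPM on days 9 and 11 with cco-1 RNAi and at 75.1 ± 2.1 and 34.1 ± 1.8 in control worms. At day 1 cpr-6 averaged 319 ± 3.8 CPM with cco-1 RNAi and 481 ± 1.8 in control worms. vit-6 and vit-2 gave 2.09 and 0.24, and 1.90 and 0.36, with mid-adult values set by rank.

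Among other lists 8 of 12 lysozymes and 7 of 12 moulting genes were lower with cco-1 RNAi and none higher, and 3 of the 5 spch and alg genes were higher. Of 30 major sperm proteins 11 had a higher value with cco-1 RNAi, a shallower dip, and the list median was -1.90 and -1.39. Without the 2 libraries 5 of the 30 were called. msp-142 gave -2.21 and -1.65, a difference of 0.56 that was 0.48 and not called without them, and alg-3 -2.56 and -1.80, a difference of 0.76 ± 0.073. F15E6.3 gave 2.83 and 1.05, and far-3 2.08 and 0.24. The difference was not called for some genes. clec-190 gave 2.45 and 2.23 (difference -0.21 ± 0.13), lipl-1 1.85 and 1.75 (-0.10 ± 0.11), skr-8 1.99 and 1.89 (-0.10 ± 0.11), col-95 3.25 and 3.19 (-0.06 ± 0.22) and pfk-1.2 -1.80 and -1.77 (0.03 ± 0.091). Without the 2 libraries the differences of these 5 genes were, in the same order, -0.37, -0.22, -0.11, -0.33 and 0.04, and none was called. A difference that was not called does not show that the courses are alike.

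**Figure D5:**
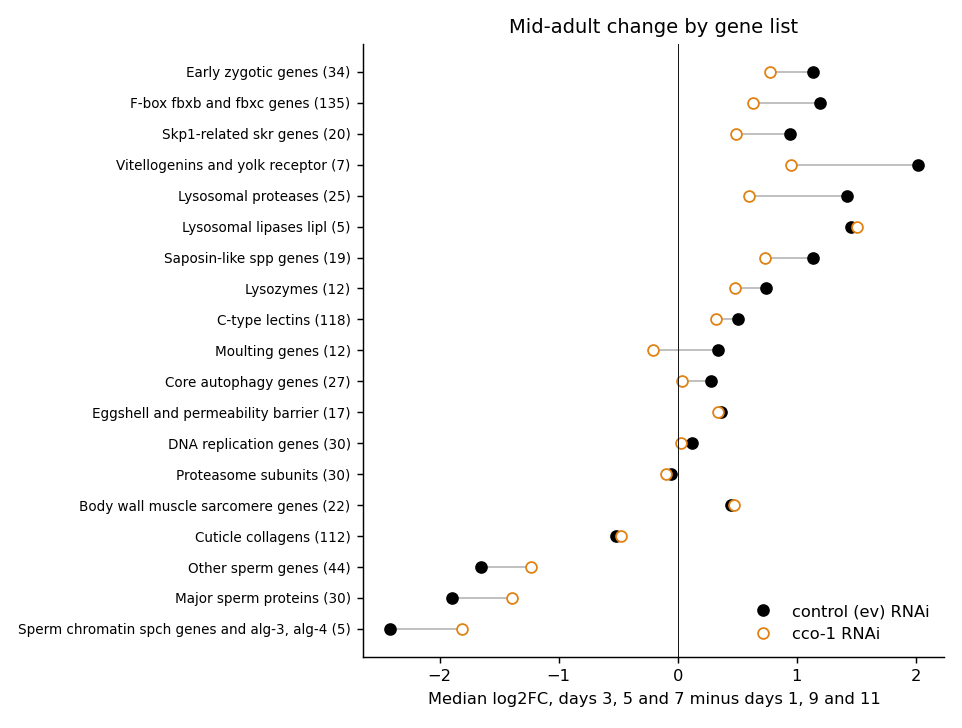
Median log2FC of days 3, 5 and 7 against days 1, 9 and 11 for 19 lists (number tested in brackets), in control worms (filled) and cco-1 RNAi worms (open). Lysosomal proteases are at 1.42 and 0.60, major sperm proteins at -1.90 and -1.39, and lipl genes at 1.46 and 1.51.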

How the data were processed

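The deposited values are quantile-normalized CPM per gene for 36 polyA RNA-seq libraries of whole worms. The submitters' processing notes name STAR 2.73a and edgeR 3.24.3. The paper's methods, which describe counting without strand from uniquely mapped reads, name another version of STAR, htseq-count and Limma-Voom. Which of these made the values is unclear. Read depth is unknown, so no count test was run. Columns of the authors' own fold changes and P values and a gene set table were not used.

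Values were taken as log2(CPM + 1) with a pseudocount of 1 CPM. Genes reaching 1 CPM or more in 3 or more of the 18 control libraries were tested with limma 3.58.1 (trend and robust; statmod 1.5.0; R 4.3.3) in a fit of 6 groups with 12 residual degrees of freedom. The RNAi groups were compared in a fit of 36 libraries with 24. P values were adjusted by Benjamini-Hochberg over all genes tested, and a call needed an absolute log2FC above 0.5 and an adjusted P below 0.05. SE is that of the fit. Figures were drawn with Python 3.11.15 and matplotlib 3.10.9, and positions come from Ensembl release 115. The fit was tested on simulated data.

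Named genes are the 12 peaked and 12 dipped genes with the largest difference to the nearer end, among those with at least 10 CPM in the higher period and no overlap of libraries, and of each list up to 3 called members with the largest log2FC and the member with the highest mean. Others were taken up after their values were seen. The 48 lists, 6 further lists added after values were seen, and the comparison itself were chosen with earlier results of these data known. Promoter motifs were not analysed here. Alternatives covered scaling, filters, pseudocounts, thresholds, a replicate block, single libraries and single days.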

Additional observations from a re-analysis of the deposited data

Results flagged for a closer look

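The mid-adult contrast differed between control and cco-1 RNAi worms in 92 of the 167 genes named with values in the Results. The test was a limma test of the difference itself in the fit of 36 libraries. The values are differences of log2FC, cco-1 RNAi minus control, so a negative value marks a lower contrast with cco-1 RNAi. Of the 92 genes 68 had a lower contrast and 24 a higher one. Over all genes tested 7.19% were lower and 4.47% higher, and the genes named here were chosen for large values in control worms. The mid-adult values of vit-6 and vit-2 are set by rank in every control library, and some days of vit-5, vit-3, asp-6, far-2 and clec-63 are too, so the spread behind their tests cannot be read. Without replicate 2 of days 9 and 11 of the cco-1 RNAi worms, msp-142, msp-56, msp-59, gsp-3, gsp-4 and kel-10 were not called, and the other 86 were. Low asp-1 and cpr-6 values were the reason to leave these libraries out, so the outcome for asp-1 and cpr-6 is not separate from that choice. Some genes not called in the fit of 36 were called without them, col-101 and col-143 among them.

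Among peaked genes the lower values were -1.84 for far-3, -1.78 for F15E6.3, -1.42 for wrt-10, -1.33 for C31C9.2, -1.33 for cht-1, -1.24 for dpy-14, -1.13 for M199.9, -1.13 for asp-6, -1.10 for his-24, -1.10 for fbxc-51, -1.09 for cnc-4 and -1.08 for clec-196. Further values in this group were -1.06 for Y45G5AM.5, -1.05 for nlp-29, -1.05 for cnc-6, -1.03 for lys-7, -1.01 for nlp-28, -0.98 for F42A10.7, -0.97 for noah-1, -0.93 for ttr-50, -0.93 for cpr-1, -0.90 for inx-3, -0.88 for asp-4 and -0.86 for fbxc-18. Further values in this group were -0.85 for skr-21, -0.84 for his-72, -0.84 for sdz-5, -0.82 for inx-2, -0.78 for pha-4, -0.78 for epg-2, -0.77 for nhr-25, -0.75 for cav-1, -0.71 for Y39G10AL.1, -0.69 for spp-18, -0.67 for C27B7.9 and -0.67 for perm-4. Further values in this group were -0.67 for fbxb-40, -0.66 for lbp-1, -0.62 for lgg-1, -0.60 for perm-2, -0.57 for sdz-28 and -0.57 for skr-7.

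Among genes that neither peaked nor dipped the lower values were -1.85 for vit-6, -1.69 for asp-1, -1.55 for clec-63, -1.54 for vit-2, -1.28 for ilys-5, -1.20 for spp-5, -1.07 for clec-85, -1.07 for cpr-6, -0.95 for spp-4, -0.92 for col-181, -0.92 for far-1 and -0.91 for vit-5. Further values in this group were -0.89 for ttr-46, -0.87 for ges-1, -0.86 for cpl-1, -0.84 for lys-2, -0.78 for far-2, -0.78 for lipl-5, -0.77 for asp-2, -0.72 for lys-1, -0.71 for clec-50, -0.68 for ttr-16, -0.60 for let-2 and -0.56 for lam-2. Further values in this group were -0.56 for vit-3 and -0.50 for rnr-2.

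Among dipped genes, where a higher value is a shallower dip, they were 0.77 for C14C10.1, 0.76 for alg-3, 0.75 for pck-3, 0.69 for fbxa-202, 0.68 for Y113G7C.1, 0.66 for ZK550.5, 0.66 for acs-18, 0.63 for aldo-1, 0.62 for alg-4, 0.62 for tbx-34, 0.60 for fbxa-196 and 0.59 for spch-3. Further values in this group were 0.58 for F44G3.7, 0.57 for acs-10, 0.56 for msp-142, 0.56 for acdh-8, 0.55 for C18E9.8, 0.55 for msp-56, 0.53 for gsp-3, 0.52 for elo-7, 0.51 for gsp-4, 0.51 for kel-10 and 0.50 for msp-59. Genes that did not dip and had a higher value gave 0.53 for ins-23. grd-3, named only for its change of sign below, gave 0.72 and is not counted here.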

How the results depend on the processing

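Counts moved most with the pseudocount and the fold threshold. With a pseudocount of 5 CPM, 1447 genes were higher, 1442 lower, 471 peaked and 853 dipped, and the difference between RNAi groups was called higher in 143 and lower in 553. With a pseudocount of 0.1 CPM, 1479 differences were higher. Without a log2FC threshold the counts were 6683 higher, 5785 lower, 2438 peaked and 2227 dipped, with 4598 and 3750 differences. With a threshold of 1 they were 964, 1266, 253 peaked and 953 dipped, with 24 and 129 differences. A filter of 5 CPM kept 632 of the peaked and 942 of the dipped genes, and scaling all library sums to the same total kept 862 and 1375. Values of genes near the filter depend on the pseudocount, and read depth is unknown.

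Leaving out one library at a time gave 2685 to 2730 higher, 2163 to 2267 lower, 884 to 914 peaked and 1365 to 1384 dipped genes, and 667 to 732 and 1048 to 1167 differences. Leaving out a whole day, an alternative chosen after seeing the data, gave 720 (without day 5) to 1143 (without day 3) peaked and 1340 (without day 11) to 1441 (without day 7) dipped genes. Without replicate 2 of days 9 and 11 of the cco-1 RNAi worms, also chosen after seeing the data, there were 754 and 1216 differences. The sign of 3 list members changed. daf-19 was at -0.011 with scaled sums, -0.008 with a pseudocount of 5 CPM and -0.003 to 0.029 without single libraries, myo-1 at 0.095 with a pseudocount of 0.1 CPM and -0.08 to 0.037 without single libraries, and grd-3 at -0.329 with a pseudocount of 5 CPM.

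A fit with the replicate number as a block gave 2714 higher, 2251 lower, 902 peaked and 1376 dipped genes, and 688 and 1107 differences. Deviations of libraries with the same number correlated at -0.0908 to 0.103, and those of libraries with other numbers at -0.101 to 0.108. No deviation shared by number was seen. These values cannot show whether libraries with the same number came from the same culture or batch.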
